A study of Mus musculus with 10 samples.

Results

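The 8 genes described here encode parts of the ribbon synapse and the active zone of cochlear hair cells (HCs). They were taken by symbol from the gene column of the count tables: *Otof*, *Ctbp2*, *Bsn*, *Pclo*, *Rims2*, *Rimbp2*, *Cabp2* and *Slc17a8*. They are 8 of the 34590 genes listed in the tables, and all 8 were among the 16891 genes that passed the filter on low counts. Their levels were measured by bulk RNA-seq of handpicked mouse cochlear cells of 5 cell types, with 2 libraries of each. Supporting cells (SCs) carried Fgfr3iCreER and a Cre-dependent tdTomato reporter (Rosa26-CAG-loxP-stop-loxP-tdTomato), and their libraries 11 and 12 are titled P26 and P27. Converted HCs (cHCs, libraries 13 and 16, P33) carried those alleles together with the inducible Atoh1-HA transgene and the alpha9 AChR-EGFP reporter. The cHCs were picked for tdTomato and EGFP together, so the gate itself required activity of an HC promoter, and tamoxifen at P12 and P13 started the conversion in Deiters' and pillar cells. The study's supplement gives the same tamoxifen for the SCs. Outer HCs (OHCs) at P7 (libraries 14 and 15) are labelled as prestin-YFP knock-in cells, whereas the study's supplement gives a tdTomato reporter under Prestin-CreERT2, induced by tamoxifen at P2 and P3, and the conflict could not be settled. Mature OHCs, called OHCs (P22) here, came from prestin-YFP knock-in mice, and their libraries are titled m21 and f22. The study's supplement gives a pair of ages for them that differs from the numbers in these titles. Inner HCs (IHCs, libraries m74 and m75) came from Pval-Cre mice with tdTomato, at ages that the study gives in days after birth. The labels do not say how many animals were pooled for a library.

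HCs release glutamate onto afferent nerve endings at ribbon synapses, where an electron-dense ribbon holds synaptic vesicles above the calcium channels of the active zone. RIBEYE, the ribbon's main protein, is made from the *Ctbp2* gene, and Bassoon anchors the ribbon to the membrane. Vesicles are filled with glutamate by VGLUT3 and fuse when calcium acts on otoferlin. IHCs carry most of the afferent signal of the cochlea, and OHCs keep fewer afferent synapses after they mature.

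Libraries held 15016129 to 40518766 counts on genes, so that 3 counts, the most that a true level may give when none is seen, equalled 0.0762 to 0.265 CPM after TMM scaling. These limits and the intervals below cover counting error only, because amplified reads are not independent molecules. The titles number the SC, cHC and OHC (P7) libraries in 1 series and the OHC (P22) and IHC libraries in another, and where a comparison crosses them, cell type and series cannot be told apart. The TMM factor of the OHC (P22) library m21 was 0.583, against 0.930 to 1.20 in the other 9. Of the 10 deposited count files, 4 sat under the record of another sample, and each file was assigned to the sample whose title its name holds. With the files as attached to the records, 0 of the 8 genes passed the test in each of the 10 comparisons. The 5 HC markers (*Myo7a*, *Myo6*, *Pou4f3*, *Gfi1*, *Pvalb*) summed to 3233 to 4979 CPM in the 8 HC libraries and to 360 to 362 CPM in SCs. The 6 SC markers (*Sox9*, *Jag1*, *Hes1*, *Gjb2*, *Fgfr3*, *Prox1*) summed to 928 to 1572 CPM in SCs, 813 to 1008 in cHCs and 88.5 to 283 in OHCs (P7). They summed to 4.46 to 7.85 CPM in OHCs (P22) and 617 to 770 in IHCs, where *Gjb2* alone stood at 611 and 468 CPM. Most of the cHC sum was *Fgfr3* (458 and 431 CPM, against 312 and 167 in SCs) and *Prox1* (247 and 293, against 53.7 and 14.7). *Sox9*, *Jag1*, *Hes1* and *Gjb2* were lower in both cHC libraries than in both SC libraries. The 6 neuron markers (*Tubb3*, *Nefl*, *Nefm*, *Nefh*, *Prph*, *Scn1a*) summed to 364 to 527 CPM in IHCs, 179 to 191 in OHCs (P7) and 77.5 to 128 in OHCs (P22). They summed to 67.4 to 118 CPM in cHCs and 0.159 to 1.11 in SCs. *Prph* had no count in any library, and *Tubb3* and *Scn1a* did not exceed 1.68 and 3.94 CPM. The IHC sum was nearly all *Nefl* (115 and 358 CPM), *Nefm* (163 and 94.7) and *Nefh* (80.7 and 72.9). Several of the 8 genes are active in neurons too, and the part of other cells in the levels below was not tested. Among the 4 IHC markers, *Slc7a14* reached 1120 and 1250 CPM and *Atp2a3* 1290 and 1550 in the IHC libraries. *Fgf8* had no count there, and *Brip1* was at 0.0674 and 0.137 CPM, against 0.212 and 1.51 in SCs. The 4 OHC markers (*Slc26a5*, *Ocm*, *Ikzf2*, *Chrna10*) summed to 5223 to 5370 CPM in OHCs (P7) and 13319 to 13412 in OHCs (P22). They summed to 237 to 283 CPM in cHCs, 43.9 to 301 in SCs and 102 to 262 in IHCs. Of these, *Ocm* was at 239 and 68.6 CPM in IHCs and *Ikzf2* at 296 and 39.9 in SCs. In bulk libraries, fewer cells of a type and less RNA per cell cannot be told apart.

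Per kilobase of exon, a scale that adjusts for the exon length of a gene only, the 8 genes together were lowest in SCs and highest in IHCs. Their summed RPKM was 26.8 and 11.6 in SCs, 119 and 119 in cHCs, 226 and 207 in OHCs (P7), 376 and 327 in OHCs (P22), and 1435 and 1288 in IHCs. The leading genes differed among the cell types, although *Otof* led in both OHCs (P7) and IHCs. *Pclo* and, in library 11 only, *Cabp2* made up most of the sum in SCs. In cHCs, *Rims2* led with 38.0% and 42.4% of the summed RPKM, followed by *Otof* with 29.8% and 17.1%. *Otof* made up 64.2% and 63.3% in OHCs (P7), and *Cabp2* made up 72.8% and 68.6% in OHCs (P22). In IHCs, *Otof* held 44.2% and 41.5%, *Slc17a8* held 28.1% and 29.0%, and *Cabp2* held 24.2% and 23.5%.

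**Figure D1:**
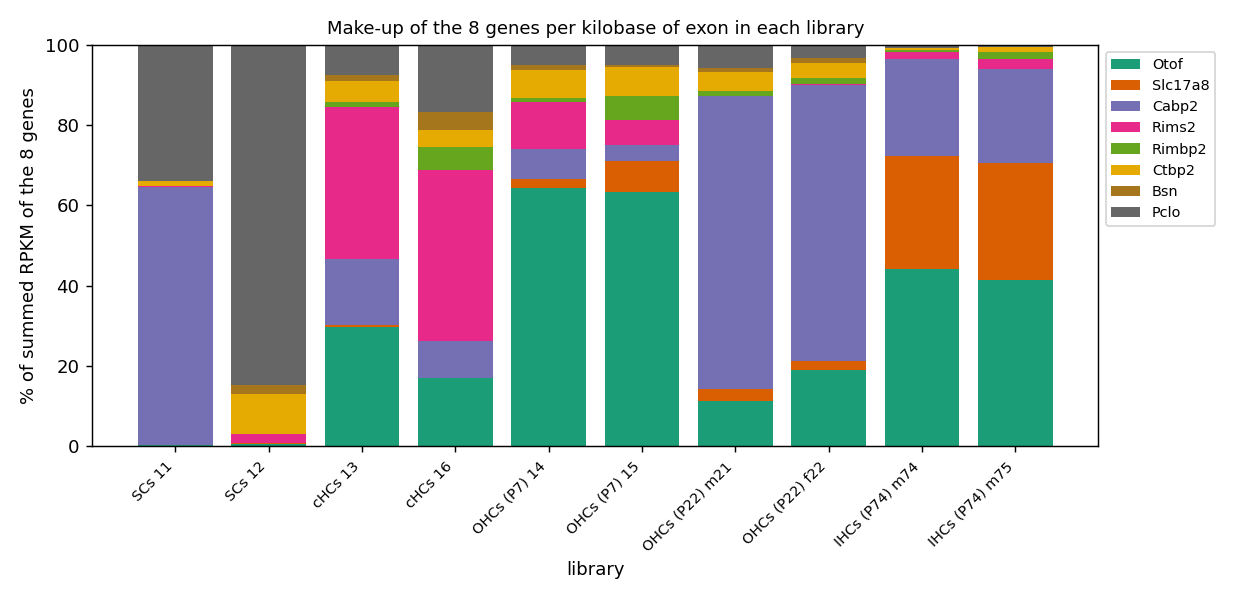
Stacked bars give the share of each gene in the summed RPKM of the 8 genes, in percent, for each of the 10 libraries. *Rims2* is the largest share in both cHC libraries (38.0% and 42.4%), *Otof* in both OHC (P7) libraries (64.2% and 63.3%) and *Cabp2* in both OHC (P22) libraries (72.8% and 68.6%).

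Differences were tested with the quasi-likelihood test of edgeR in 1 model of all 10 libraries, with a false discovery rate (FDR) over all genes tested in a comparison, and a gene is called where the FDR is under 0.05. Comparisons that share a cell type share its libraries. In cHCs, 3 of the 8 genes were higher than in SCs (*Otof*, *Rims2* and *Rimbp2*) and none was lower, where 1.75% of all genes tested were called higher. Against the same SCs, 5 of 8 were higher in OHCs (P7), with 2.56% of all genes called higher, 4 of 8 in OHCs (P22), with 4.01%, and 5 of 8 in IHCs, with 2.23%. Between HC types, fewer of the 8 genes were called. Relative to cHCs, 1 was higher in OHCs (P7), with 0.219% of all genes called higher, and 2 were higher in IHCs, with 0.420%. In OHCs (P22), 1 was lower than in cHCs, with 2.02% of all genes called lower, and 1 was lower than in OHCs (P7), with 0.420%. IHCs had 2 genes higher than OHCs (P22), with 0.977% of all genes called higher. Between IHCs and OHCs (P7), edgeR called 0 of 8, with 0.379% of all genes called in either direction, although 3 of the 8 had an unadjusted p under 0.05 and DESeq2 called 3 and limma-voom 2. An exact permutation test of 2 libraries against 2 cannot give a p below 0.333, so the calls rest on the spread that edgeR shares across genes and cell types.

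**Figure D2:**
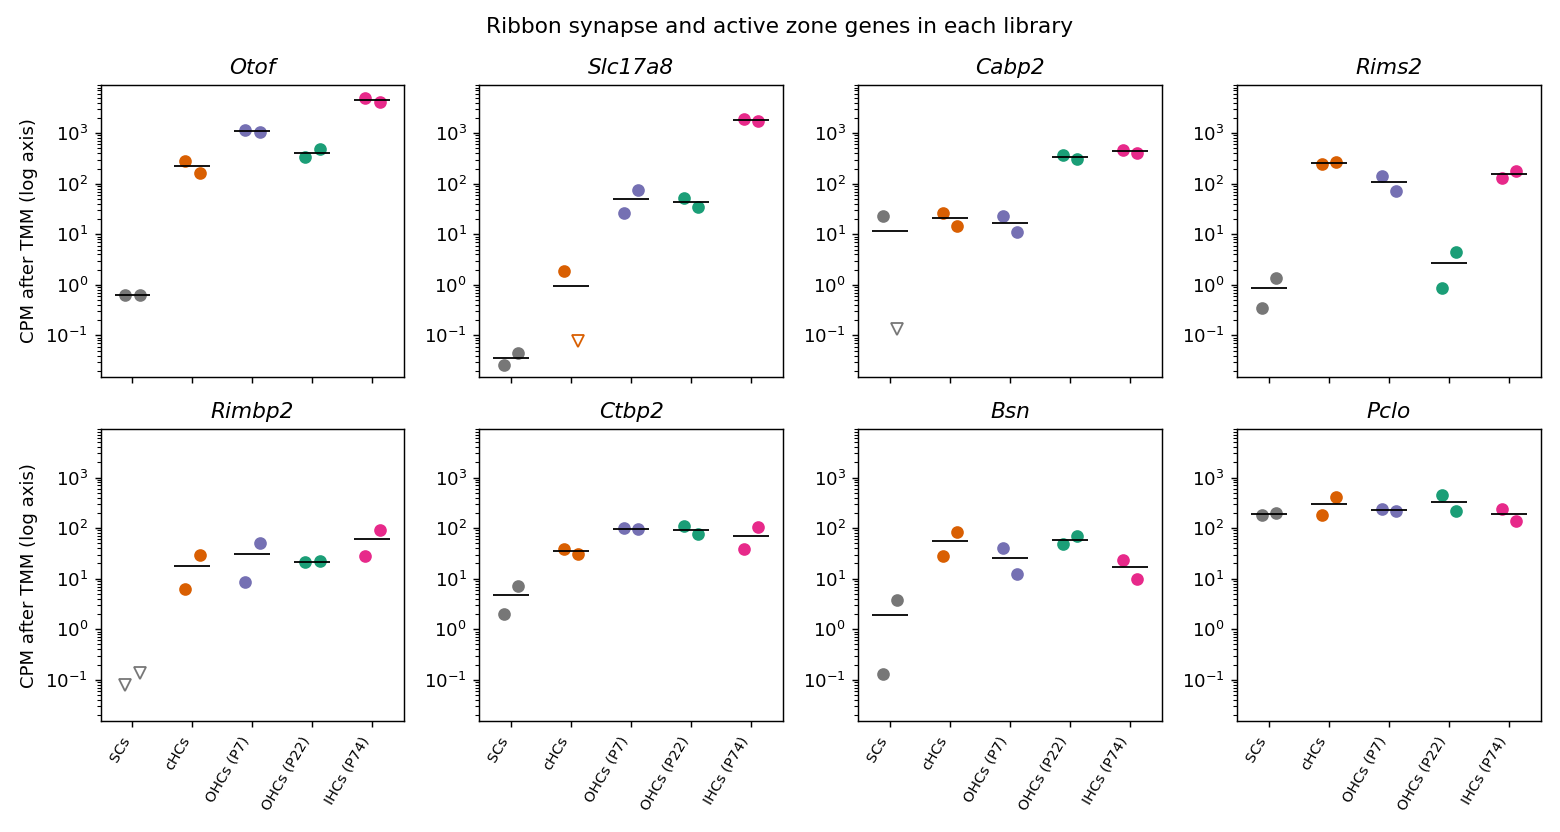
Each panel shows 1 gene as CPM after TMM scaling on a log axis. Filled points are libraries, bars are the means of 2 libraries, and open triangles mark libraries with no count, drawn at the level of 3 counts. *Otof* climbs from 0.637 and 0.622 CPM in SCs to 5009.9 and 4216 CPM in IHCs, while *Pclo* stays between 140 and 453 CPM in all 10 libraries.

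*Otof* (ENSMUSG00000062372, mm9 chr5:30669351-30764305, minus strand) encodes otoferlin, the calcium sensor of vesicle fusion in HCs. Its level was 0.637 and 0.622 CPM in SCs, 279 and 161 in cHCs, 1145 and 1036 in OHCs (P7), 337.5 and 490.2 in OHCs (P22), and 5009.9 and 4216 in IHCs. The libraries of the 5 cell types did not overlap, with IHCs first, then OHCs (P7), OHCs (P22), cHCs and SCs. *Otof* was higher in cHCs than in SCs by 8.44 ± 0.54 (log2 fold change ± SE, FDR = 4.27e-05), and the differences of OHCs (P7), OHCs (P22) and IHCs from SCs were 10.75, 9.35 and 12.83 on the log2 scale, all called. It was higher in IHCs than in cHCs by 4.39 ± 0.45 (FDR = 0.00384) and than in OHCs (P22) by 3.48 ± 0.43 (FDR = 0.00413). Neighbours in the order above SCs were not separated by the test. Between IHCs and OHCs (P7) the log2 difference was 2.08 ± 0.40 (FDR = 0.0640), between OHCs (P22) and OHCs (P7) it was -1.40 ± 0.39 (FDR = 0.167), and between OHCs (P22) and cHCs it was 0.91 ± 0.39 (FDR = 0.236). The difference of IHCs from OHCs (P7) passed with DESeq2 (FDR = 0.00361) and with limma-voom (FDR = 0.000856), and in edgeR without any single SC, cHC or OHC (P22) library. The level in OHCs (P7) exceeded that in cHCs by 2.31 ± 0.41 (FDR = 0.0454), a call that was lost without cHC library 16 (FDR = 0.173), without OHC (P7) library 14 (FDR = 0.169) or 15 (FDR = 0.101), and under other scalings.

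*Slc17a8* (ENSMUSG00000019935, mm9 chr10:89036765-89083998, minus strand) encodes VGLUT3, the transporter that loads glutamate into HC vesicles. It had 1 count in each SC library, and 44 counts (1.87 CPM) in cHC library 13 and none in cHC library 16, where no count allows a level of up to 0.0762 CPM. It stood at 26.3 and 75.5 CPM in OHCs (P7), at 52.5 and 35.4 in OHCs (P22), and at 1907 and 1763 in IHCs. IHCs were above every other library, the OHC ages overlapped, and both cHC libraries were below all 6 native HC libraries. Its level over SCs was 1218 times (exact 95% interval of the counts 337 to 10067) in OHCs (P7), 1231 times (340 to 10175) in OHCs (P22) and 55208 times (15283 to 455881) in IHCs, and all of these were called (FDR = 0.0109, 0.0065 and 0.00219). In cHCs the ratio to SCs was 21.1 (5.49 to 179) and was not called (FDR = 0.241). It rests on library 13, since the log2 difference was -3.06 without that library and 5.60 without library 16 (FDR = 0.00209). IHCs were higher than cHCs by 10.97 ± 1.74 on the log2 scale (FDR = 0.0149). The log2 difference from cHCs was 5.80 ± 1.42 in OHCs (P7) (FDR = 0.153) and 5.59 ± 1.40 in OHCs (P22) (FDR = 0.0588). Without cHC library 13 both passed (FDR = 0.000543 and 0.000223), and without cHC library 16 both passed too (FDR = 0.0403 and 0.0117). The OHC (P22) difference also passed without any single SC, OHC (P7) or IHC library and without OHC (P22) library f22 (FDR = 0.0165 to 0.0499). IHCs exceeded OHCs (P7) by 5.17 ± 1.36 (FDR = 0.173) and OHCs (P22) by 5.38 ± 1.37 (FDR = 0.0944), and both differences passed without cHC library 13 (FDR = 0.000868 and 0.000344) or 16 (FDR = 0.00137 and 0.000522). The difference from OHCs (P22) also passed without any single SC or OHC (P7) library (FDR = 0.0252 to 0.0475). With all 10 libraries, DESeq2 (FDR = 0.00144 and 0.000837) and limma-voom (FDR = 0.0024 and 0.00884) called both IHC differences from OHCs. Both methods also called OHCs (P22) above cHCs (FDR = 0.000216 and 0.0355), and DESeq2 called OHCs (P7) above cHCs (FDR = 0.000454). The compared pair fitted alone called both IHC differences from OHCs (FDR = 0.0257 and 0.0104), and lost that of IHCs from cHCs (FDR = 0.0770). The edgeR model shares 1 spread per gene over all cell types, so the unequal cHC libraries entered its tests.

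*Cabp2* (ENSMUSG00000024857, mm9 chr19:4081578-4087340, plus strand) encodes a calcium-binding protein that limits the inactivation of HC calcium channels. It was measured at 23.2 CPM (875 counts) in SC library 11 and had no count in SC library 12, which allows up to 0.133 CPM. It stood at 26.2 and 14.9 CPM in cHCs and at 22.7 and 11.1 in OHCs (P7), and at 370 and 302 in OHCs (P22) and 469 and 408 in IHCs. The 4 libraries of mature HCs were all above the 6 others, and cHCs overlapped OHCs (P7). *Cabp2* was called in 0 of the 10 comparisons by edgeR. Its log2 difference from OHCs (P7) was 4.31 ± 1.65 in OHCs (P22) (unadjusted p = 0.0239, FDR = 0.296) and 4.70 ± 1.68 in IHCs (FDR = 0.327), and from cHCs it was 4.03 ± 1.63 (FDR = 0.211) and 4.41 ± 1.66 (FDR = 0.325). Without SC library 11, these 4 differences passed with FDRs of 0.0072, 0.00388, 0.00319 and 0.003. Without SC library 12, they passed with FDRs of 0.00727, 0.00357, 0.00312 and 0.00301. DESeq2 on all 10 libraries also called all 4 (FDR = 0.0242, 0.0188, 0.0304 and 0.0357). The log2 differences from SCs were 4.85 ± 1.69 in OHCs (P22) (FDR = 0.104) and 5.23 ± 1.72 in IHCs (FDR = 0.162), and both passed without SC library 12 (FDR = 0.0164 and 0.0234) or 11 (FDR = 9.52e-05 and 0.000124). The mature HCs are also the cell types of the other library series, and maturity and series cannot be told apart for this gene. The cHC level itself changed direction against SCs with the library chosen, with a log2 difference of 12.04 without SC library 11 and -0.18 without SC library 12.

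*Rims2* (ENSMUSG00000037386, mm9 chr15:39029878-39513486, plus strand) encodes a RIM scaffold that ties vesicles to calcium channels. Its level was 0.345 and 1.38 CPM in SCs, 243 and 274 in cHCs, 142 and 71.4 in OHCs (P7), 0.882 and 4.42 in OHCs (P22), and 130 and 178 in IHCs. OHCs (P22) overlapped SCs, and both cHC libraries were above all others. *Rims2* was higher in cHCs than in SCs by 8.24 ± 1.12 on the log2 scale (FDR = 0.00291), in OHCs (P7) by 6.97 ± 1.06 (FDR = 0.00447) and in IHCs by 7.50 ± 1.09 (FDR = 0.00358). The difference between OHCs (P22) and SCs was 1.66 ± 0.86 (FDR = 0.247). OHCs (P22) were lower than cHCs by -6.58 ± 1.04 (FDR = 0.00925), lower than OHCs (P7) by -5.31 ± 0.98 (FDR = 0.0461) and lower than IHCs, which exceeded them by 5.83 ± 1.01 (FDR = 0.0214). Without OHC (P22) library m21 the calls against OHCs (P7) (FDR = 0.165) and IHCs (FDR = 0.0774) were lost, and the call against OHCs (P7) was also lost without library 14 (FDR = 0.0750). With limma-voom both calls were lost (FDR = 0.101 and 0.0527), as they were when the compared pair was fitted alone (FDR = 0.141 and 0.0773), and the call against OHCs (P7) was lost under the other scalings (FDR = 0.0529 and 0.0660). IHCs and OHCs (P22) share a library series, whereas the comparisons of OHCs (P22) with cHCs and OHCs (P7) cross the series. The order among cHCs, IHCs and OHCs (P7) was not separated by the test (FDR = 0.769 between cHCs and IHCs, and 0.844 between IHCs and OHCs (P7)).

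*Rims3* encodes a shorter RIM of the same family. It was at 0.0531 and 0.489 CPM in SCs, 0.468 and 6.83 in cHCs, 56.9 and 84.9 in OHCs (P7), 258 and 191 in OHCs (P22), and 80.0 and 74.7 in IHCs. *Rims3* was not called between OHCs (P22) and OHCs (P7). It was higher in OHCs (P22) than in cHCs by 5.93 ± 1.32 on the log2 scale (FDR = 0.0343) and higher than in SCs in all 3 native HC types (FDR = 0.00385 to 0.0128). *Rims2* made up 98.3% to 99.9% of the RPKM of both genes in cHCs, 55.4% to 78.6% in OHCs (P7), 70.5% to 77.9% in IHCs and 0.502% to 3.31% in OHCs (P22). *Rims1* did not exceed 0.538 RPKM in any library.

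**Figure D3:**
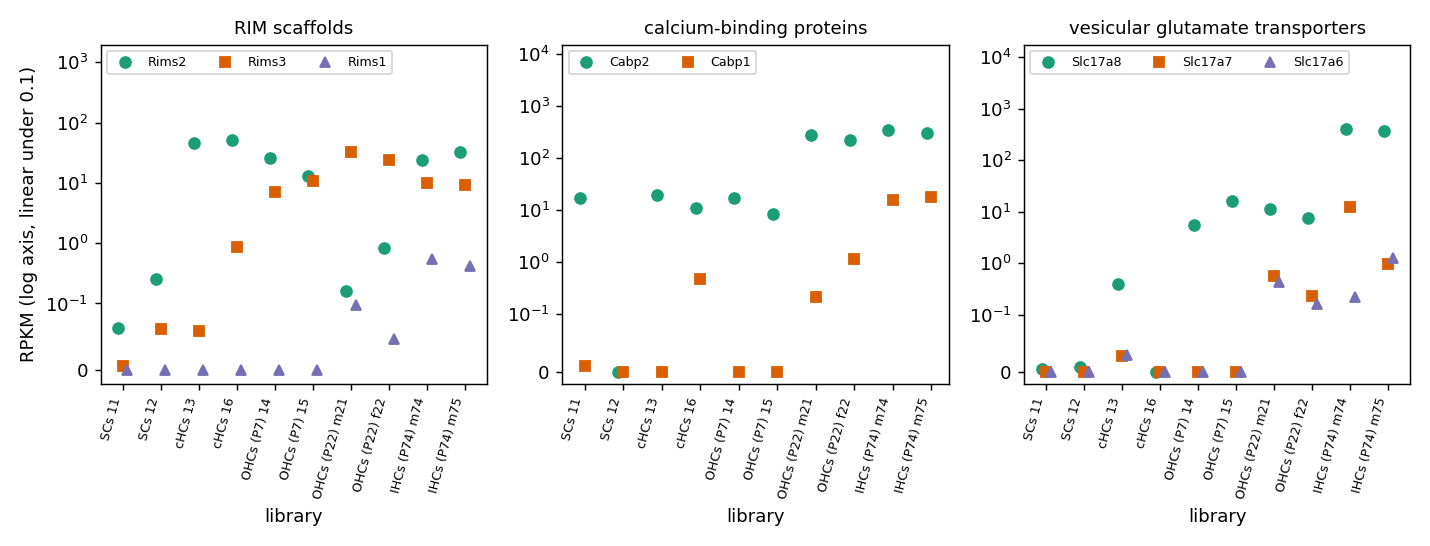
Points give RPKM per library for *Rims2*, *Rims3* and *Rims1*, for *Cabp2* and *Cabp1*, and for *Slc17a8*, *Slc17a7* and *Slc17a6*, on an axis that is logarithmic above 0.1 and linear below it. *Rims2* lies above *Rims3* in cHCs, OHCs (P7) and IHCs and below it in both OHC (P22) libraries, and *Cabp1* exceeds 10 RPKM only in the IHC libraries.

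*Rimbp2* (ENSMUSG00000029420, mm9 chr5:129266276-129459237, minus strand) encodes a RIM-binding protein that links RIMs to calcium channels. It had no count in either SC library, and stood at 6.34 and 30.0 CPM in cHCs, 8.59 and 51.6 in OHCs (P7), 20.9 and 22.6 in OHCs (P22), and 27.9 and 91.2 in IHCs. All 8 HC libraries were above both SC libraries, and cHCs overlapped OHCs of both ages and IHCs. Taking 3 counts over both SC libraries as the floor, the level was at least 424.5-fold higher in cHCs (FDR = 0.0189), at least 422-fold in OHCs (P7) (FDR = 0.0113), at least 442-fold in OHCs (P22) (FDR = 0.00721) and at least 1188-fold in IHCs (FDR = 0.00925). No pair of HC types was called. The call in cHCs was lost without SC library 11 (FDR = 0.0773) or 12 (FDR = 0.0646). With the compared pair fitted alone, the calls in cHCs (FDR = 0.142) and OHCs (P7) (FDR = 0.072) were lost.

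Atoh1, the factor expressed in cHCs, binds E-boxes, which are sites of the form CANNTG. The promoter of *Rimbp2*, which was high in cHCs and not detected in SCs, and the promoters of *Slc17a8*, which was not called in cHCs, are therefore printed from RefSeq (build GRCm38.p6), as windows of 300 bases around a start site, 5′ to 3′ on the gene's strand, with E-boxes in capitals. The *Rimbp2* window lies at chr5:128953437-128953736 (minus strand), and those of *Slc17a8* at chr10:89621200-89621499 and chr10:89599766-89600065 (both minus strand). RefSeq windows were found for 6 of the 8 genes, and not for *Otof* and *Rims2*, which were also called in cHCs.
Rimbp2: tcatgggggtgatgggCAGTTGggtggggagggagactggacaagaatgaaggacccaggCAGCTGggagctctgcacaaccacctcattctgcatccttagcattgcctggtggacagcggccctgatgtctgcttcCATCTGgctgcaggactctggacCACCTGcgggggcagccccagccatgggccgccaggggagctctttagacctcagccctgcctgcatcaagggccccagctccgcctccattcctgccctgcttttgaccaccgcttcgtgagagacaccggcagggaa
Slc17a8, first window: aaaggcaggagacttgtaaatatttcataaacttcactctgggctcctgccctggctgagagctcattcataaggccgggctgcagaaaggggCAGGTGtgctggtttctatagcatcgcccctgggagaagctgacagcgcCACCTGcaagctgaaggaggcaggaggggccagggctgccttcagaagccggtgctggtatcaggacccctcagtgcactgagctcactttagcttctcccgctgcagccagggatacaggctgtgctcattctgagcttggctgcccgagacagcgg
Slc17a8, second window: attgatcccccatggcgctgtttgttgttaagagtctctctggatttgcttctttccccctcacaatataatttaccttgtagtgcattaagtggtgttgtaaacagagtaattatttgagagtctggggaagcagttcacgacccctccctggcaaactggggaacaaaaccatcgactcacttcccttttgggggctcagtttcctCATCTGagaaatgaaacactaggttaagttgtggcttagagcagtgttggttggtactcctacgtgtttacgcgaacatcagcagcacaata
The *Rimbp2* window held 4 E-boxes, 1 of them of the form CAGCTG, and the *Slc17a8* windows held 2 and 1, with 0 of that form. The other windows belong to genes not called in cHCs, of which *Bsn* held 1 E-box, of the form CAGCTG. *Ctbp2* (2 in each of its windows), *Pclo* (2) and *Cabp2* (2 and 0) held E-boxes of other forms. *Rimbp2* was the only gene called in cHCs that had a window, so the counts cannot be set against the call. CANNTG reads in the same form on both strands, and CAGCTG is a subset of it. Of 32851 windows of 300 bases in the table, 72.3% held at least 1 CANNTG and 16.3% held CAGCTG. A match describes these letters and not binding.

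*Ctbp2* (ENSMUSG00000030970, mm9 chr7:140179246-140316037, minus strand) encodes both the ribbon protein RIBEYE and the transcriptional corepressor CtBP2, which gene counts do not separate. In the annotation, 314 bases (5.05%) of its exons also lie in exons of *Fgfr2*. It stood at 1.99 and 7.33 CPM in SCs, 38.8 and 31.4 in cHCs, 99.6 and 94.1 in OHCs (P7), 112 and 74.97 in OHCs (P22), and 38.8 and 103 in IHCs. Every HC library was above both SC libraries, cHCs were below OHCs of both ages, and IHCs overlapped cHCs. The level was higher than in SCs by 4.38 ± 0.91 (log2) in OHCs (P7) (FDR = 0.0249), 4.33 ± 0.91 in OHCs (P22) (FDR = 0.0151) and 3.93 ± 0.90 in IHCs (FDR = 0.0441). All 3 calls were lost without SC library 11 (FDR = 0.109, 0.0733 and 0.178). Those of OHCs (P7) and IHCs were also lost without OHC (P7) library 14 (FDR = 0.0676 and 0.0553) or 15 (FDR = 0.0561 and 0.0558), and that of IHCs without IHC library m75 (FDR = 0.204). The cHC difference of 2.92 ± 0.86 did not pass (unadjusted p = 0.00584, FDR = 0.145) and passed with DESeq2 (FDR = 0.00979). No pair of HC types was called. Its paralogue *Ctbp1* ranged from 7.93 to 27.4 RPKM over the 10 libraries.

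*Bsn* (ENSMUSG00000032589, mm9 chr9:107998354-108092715, minus strand) and *Pclo* (ENSMUSG00000061601, mm9 chr5:14514918-14863457, plus strand) encode Bassoon and Piccolo, giant scaffolds of the active zone. *Bsn* stood at 0.133 and 3.78 CPM in SCs, 28.7 and 83.6 in cHCs, 39.6 and 12.4 in OHCs (P7), 48.9 and 68.6 in OHCs (P22), and 23.7 and 9.86 in IHCs. All 8 HC libraries were above both SC libraries, cHCs overlapped OHCs of both ages, OHCs (P7) overlapped IHCs, and OHCs (P22) lay above OHCs (P7) and IHCs. The log2 difference of cHCs from SCs was 4.85 ± 1.51 (unadjusted p = 0.00824, FDR = 0.172), and it passed without SC library 12 (FDR = 0.0496) and with DESeq2 (FDR = 0.00212). That of OHCs (P22) was 4.92 ± 1.51 (FDR = 0.0733), and it too passed without SC library 12 (FDR = 0.0177). *Bsn* was called in 0 of the 10 edgeR comparisons, those between HC types included. The antisense lincRNA *F630040L22Rik* overlaps 1813 bases (11.4%) of its exons, and the sources used here do not say whether counting used strand. *Pclo* stood at 185 and 201 CPM in SCs, 182 and 410 in cHCs, 239 and 219 in OHCs (P7), 453 and 216 in OHCs (P22), and 244 and 140 in IHCs. SCs lay within the range of the HC libraries. *Pclo* was called in 0 of 10 comparisons, and its unadjusted p was at least 0.185 in each. Between cHCs and SCs its log2 difference was 0.61 ± 0.57, and -0.08 without cHC library 16.

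**Figure D4:**
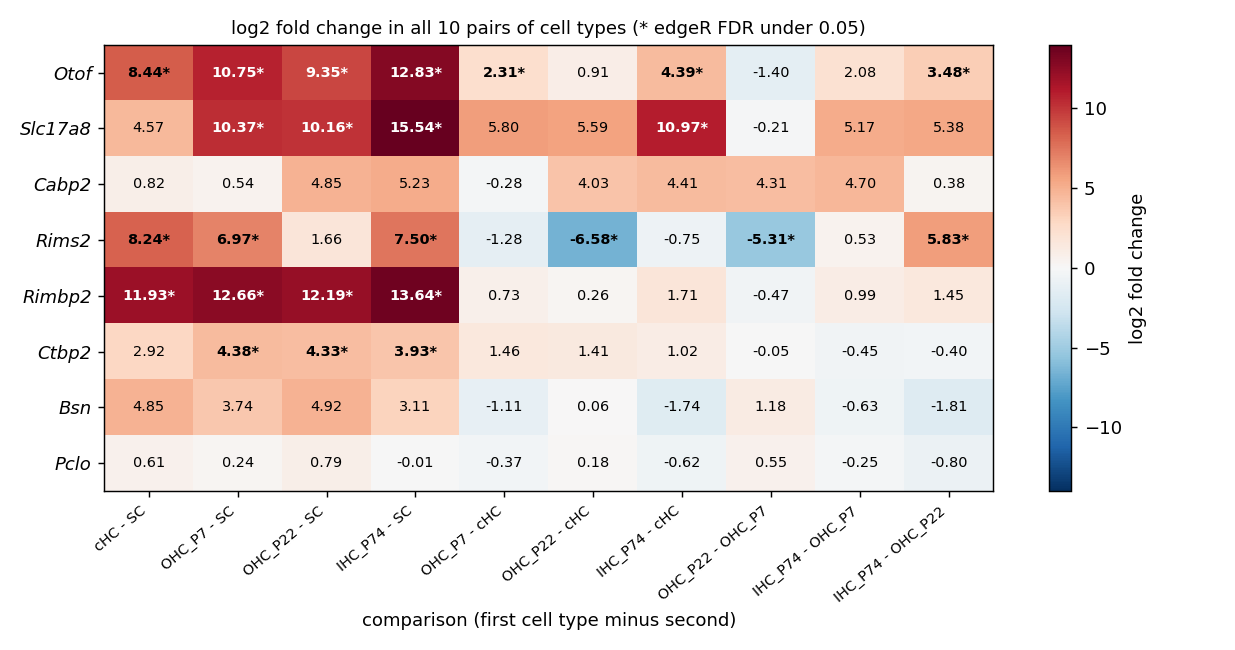
The grid gives the fitted log2 fold change of each gene in each of the 10 pairs of cell types, first minus second, with an asterisk where the edgeR FDR was under 0.05. *Otof* is called in 7 pairs and *Rims2* in 6, and *Cabp2*, *Bsn* and *Pclo* in none; values against SCs for *Rimbp2* depend on the prior count, since SCs had no counts of it.

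As a share of each native mean, the cHC means fell into distinct patterns. *Rims2* in cHCs was 242% of the OHC (P7) mean, 168% of the IHC mean and 9745% of the OHC (P22) mean. *Bsn* was 216%, 334% and 95.6% of the means of OHCs (P7), IHCs and OHCs (P22). *Ctbp2* was 36.3% of OHCs (P7), 37.5% of OHCs (P22) and 49.4% of IHCs. *Otof* was 20.2% of OHCs (P7), 53.2% of OHCs (P22) and 4.77% of IHCs. *Cabp2* was 122% of OHCs (P7), and 6.11% of OHCs (P22) and 4.69% of IHCs. *Slc17a8* was lowest, at 1.84% of OHCs (P7), 2.13% of OHCs (P22) and 0.0510% of IHCs. *Rimbp2* was 60.4% of OHCs (P7), 83.7% of OHCs (P22) and 30.5% of IHCs, and *Pclo* was 129%, 88.4% and 154% of the same means. Of these differences, edgeR called those of *Otof* from OHCs (P7) and IHCs, of *Slc17a8* from IHCs and of *Rims2* from OHCs (P22), and no other. The 6 SC markers summed to 813 to 1008 CPM in cHCs, mostly from *Fgfr3* and *Prox1*, and their part in these shares was not tested.

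**Figure D5:**
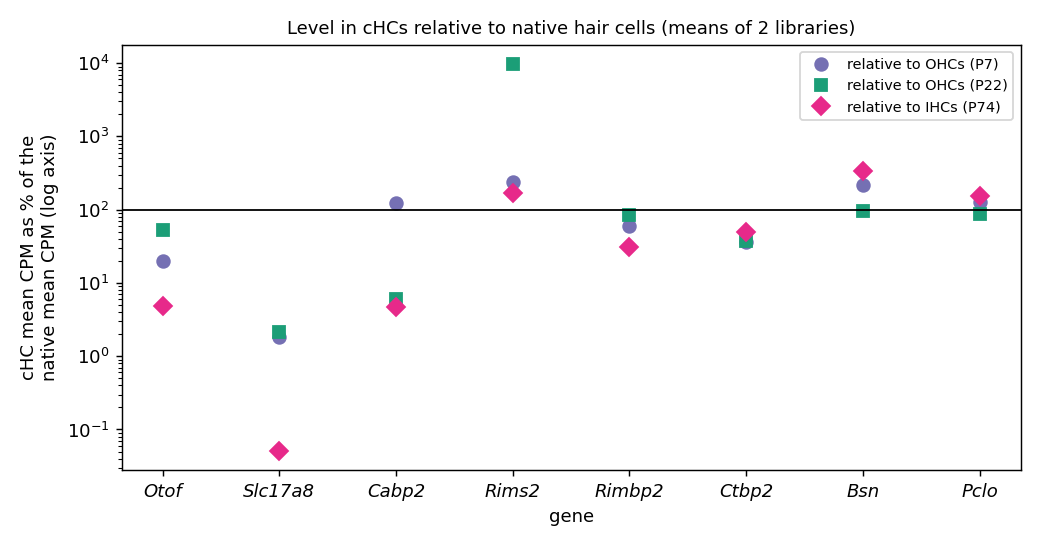
Points give the mean CPM of cHCs as a percent of the mean of OHCs (P7), OHCs (P22) and IHCs for each gene, on a log axis, with means of 2 libraries and a line at 100%. *Rims2* lies above the line for all 3 references and *Slc17a8*, *Otof*, *Ctbp2* and *Rimbp2* lie below it for all 3.

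Among 13 other active zone scaffold genes, 12 were tested. Against SCs, 0 were called in cHCs, 3 were higher in OHCs (P7), 3 were higher and 1 lower in OHCs (P22), and 3 were higher in IHCs, beside 1.75%, 2.56%, 4.01% and 2.23% of all genes called higher and 4% called lower in OHCs (P22). The median log2 differences were 2.82, 3.11, 4.04 and 3.98 over the list and 0.03, 0, 0 and 0 over all genes. In each native type the 3 that rose were *Rims3* and the liprins *Ppfia3* and *Ppfia4*, which help to assemble active zones. *Ppfia3* was at 0.0797 and 0.0888 CPM in SCs, 0.936 and 4.12 in cHCs, and 16.3 to 47.8 in the 6 native HC libraries. *Ppfia4* was at 7.06 CPM in cHC library 13 and 0.0254 in library 16, and at 22.8 to 91.2 in native HCs. *Unc13b*, a vesicle priming gene of the Munc13 family, was at 52.5 and 185 CPM in SCs, 14.5 and 25.9 in cHCs, 38.9 and 12.8 in OHCs (P7), 0.176 and 0 in OHCs (P22), and 37.9 and 6.01 in IHCs. It was lower in OHCs (P22) than in SCs (log2 difference -10.65 ± 1.90, FDR = 0.00638) and than in cHCs (-8.09 ± 1.75, FDR = 0.0313), and IHCs exceeded OHCs (P22) by 8.21 ± 1.76 (FDR = 0.0477). OHCs (P22) were also lowest in SC markers (4.46 to 7.85 CPM summed, against 617 to 770 in IHCs and 813 to 1008 in cHCs), and their part in the level of *Unc13b* was not tested. Against cHCs, 1 scaffold gene was higher (*Rims3*) and 1 lower in OHCs (P22), beside 1.16% and 2.02% of all genes.

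Of 9 paralogues of the 8 genes, 8 were tested. *Myof*, which encodes the ferlin myoferlin, was the 1 called. It was at 50.6 and 39.7 CPM in SCs, 1.40 and 11.1 in cHCs, 0.109 and 0.134 in OHCs (P7), 0.176 and 0.126 in OHCs (P22), and 30.3 and 36.5 in IHCs. Beside 0.853% of all genes called lower in OHCs (P7) and 4% in OHCs (P22), it was lower than in SCs in OHCs (P7) (-8.50 ± 1.66, FDR = 0.018) and OHCs (P22) (-8.20 ± 1.65, FDR = 0.0119), and higher in IHCs than in OHCs (P22) by 7.77 ± 1.62 (FDR = 0.0416). The 6 SC markers summed to 617 to 770 CPM in IHCs and 4.46 to 7.85 in OHCs (P22). They summed to 813 to 1008 CPM in cHCs and 88.5 to 283 in OHCs (P7). Most of the IHC sum was *Gjb2* (611 and 468 CPM). The cHC sum was mostly *Fgfr3* (458 and 431 CPM) and *Prox1* (247 and 293). The part of SCs in the level of *Myof* was not tested. *Cabp1* stood at 38.0 and 43.6 CPM in IHCs and at 2.78 CPM or less in the other 8 libraries, without passing the test. *Slc17a7*, which encodes the vesicular transporter VGLUT1 of neurons, was at 35.8 CPM in IHC library m74, 2.92 in m75 and 1.68 or less elsewhere. The part of neurons in its level was not tested.

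Among 13 genes of the calcium channel, membrane insertion, transport and adhesion of the synapse, all tested, 1 was higher in cHCs than in SCs, 2 in OHCs (P7), 3 in OHCs (P22) and 1 in IHCs, beside 1.75%, 2.56%, 4.01% and 2.23% of all genes called higher. *Nrxn3* was the other gene called in OHCs (P7), and *Cacna1d* and *Nrxn2* the others in OHCs (P22). *Cacnb2*, a subunit of the HC calcium channel, was the gene called in all 4, at 0.372 and 0.0444 CPM in SCs, 35.1 and 86.1 in cHCs and 39.9 to 242 in native HCs (FDR = 0.00123 to 0.00339 with edgeR). *Cacna1d*, the pore of that channel, was at 0.531 and 28.2 CPM in SCs and 228 and 183 in cHCs. It stood at 528 and 544 CPM in OHCs (P7), 3350 and 1260 in OHCs (P22), and 374 and 271 in IHCs. Its difference between OHCs (P22) and SCs was called (log2 difference 7.33 ± 1.44, FDR = 0.0106 with edgeR).

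The adhesion genes *Nrxn3* and *Nlgn2* were lower in mature OHCs than in cHCs. *Nrxn3*, a presynaptic neurexin, was at 13.3 and 0.311 CPM in SCs, 255 and 529 in cHCs, 537 and 366 in OHCs (P7), 1.85 and 0.927 in OHCs (P22), and 0.741 and 0.619 in IHCs. Its level in OHCs (P22) and IHCs differed from that in cHCs by -8.16 ± 1.48 (FDR = 0.0143 with edgeR) and -9.16 ± 1.54 (FDR = 0.019), and from that in OHCs (P7) by -8.36 ± 1.49 (FDR = 0.044) and -9.36 ± 1.55 (FDR = 0.0314). The list gave 2 genes lower in OHCs (P22) than in cHCs, beside 2.02% of all genes, and 1 (*Nrxn3*) lower in IHCs than in cHCs (0.503%), in OHCs (P22) than in OHCs (P7) (0.420%) and in IHCs than in OHCs (P7) (0.249%). *Nlgn2*, a neuroligin, was at 4.28 and 3.02 CPM in SCs and 32.8 and 114 in cHCs. It stood at 4.75 and 12.8 CPM in OHCs (P7), 0.529 and 0.379 in OHCs (P22), and 6.67 and 3.68 in IHCs. Its level in OHCs (P22) differed from that in cHCs by -7.34 ± 1.49 on the log2 scale (FDR = 0.0241 with edgeR). All of these comparisons with mature HCs cross the library series and cannot be told apart from it.

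By Pearson's r of log2 CPM with a prior count of 2 over the 10 libraries, *Defb25* (r = 0.990) and *Trim36* (r = 0.982) were among the 3 profiles most like that of *Otof*. For the other genes, the closest profiles were those of *Rtn4rl2* for *Rims2* (r = 0.977), *Snap25*, a SNARE of vesicle fusion, for *Rimbp2* (r = 0.975), *Acss2* for *Ctbp2* (r = 0.966), *Hip1r* for *Bsn* (r = 0.966), *Gm12474* for *Pclo* (r = 0.906), *Cpeb3* for *Cabp2* (r = 0.986) and *Plcxd2* for *Slc17a8* (r = 0.964). These values describe 10 libraries that fall into 5 cell types, share series and depth, and were ranked over all genes tested. Among the 8 genes, the closest pair was *Otof* and *Rimbp2* (r = 0.942), and *Pclo* had r between -0.18 and 0.50 with the other 7.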

How the data were processed

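Bulk RNA-seq of 10 libraries, 2 of each of 5 cell types, was analysed. Per the labels and methods, the authors made cDNA by isothermal single-primer amplification, used CASAVA 1.7 and Cutadapt on the reads, aligned them to mm9 (STAR, BWA) and counted genes (HTSeq). The deposited values are raw counts per gene. Unassigned reads were 44.2% to 72.1% of each library and stayed out of library sizes.

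Each file was assigned to the sample whose title its name holds. This was checked against the study's CPM by constant ratio (coefficient of variation at most 0.000138% over 1728 to 1970 genes with at least 10 counts, against at least 170.4% for other files).

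Counts were tested 2-sided with edgeR 4.0.16 (R 4.3.3; TMM, filterByExpr by cell type, glmQLFit, all 10 libraries), with Benjamini-Hochberg adjustment. The SE is the log2 fold change over the square root of F. RPKM used exon lengths of GENCODE for mm9. Alternatives were DESeq2 1.42.0, limma-voom 3.58.1 (the study's method), other scalings and filters, fits of the compared pair alone, the files as attached, and leaving out each library. Figures used matplotlib 3.10.9.

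The text names the 8 genes, genes of the other lists that passed the test, cell type markers, and some of the closest profiles, of which 1 is not reported here. *Rims1*, *Ctbp1*, *Cabp1* and *Slc17a7* were named after their values were seen. Members and lists were chosen with earlier results of these data known. The study calls the libraries of a cell type biological duplicates, without the number of animals in each, and p-values measure only the spread between these samples.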

Additional observations from a re-analysis of the deposited data

How the results depend on the processing

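No paired analysis was possible because the cell types share no replicate number. The count of the 8 genes called changed by over 1.5 times as follows. With the files as attached to the records it was 0 in every comparison, as was the number called of all genes. DESeq2 gave 6 (from 3) between cHCs and SCs, 3 (from 1) between OHCs (P22) and cHCs, 3 (from 0) between IHCs and OHCs (P7), and 2 (from 1) between OHCs (P22) and OHCs (P7) and between OHCs (P7) and cHCs. With no filter on low counts these comparisons gave 5, 3, 3, 2 and 2. limma-voom gave 3 between OHCs (P22) and cHCs, 2 between IHCs and OHCs (P7) and 0 between OHCs (P22) and OHCs (P7). A fit of the compared pair alone gave 2, 3 and 0 for these, 0 between OHCs (P7) and cHCs, and 3 (from 5) between OHCs (P7) and SCs. edgeR with DESeq2 size factors, and with library totals only, gave 0 between OHCs (P22) and OHCs (P7) and between OHCs (P7) and cHCs. At least 10 counts in every library, which removes genes absent from a cell type, gave 3 for OHCs (P7) and IHCs against SCs, 2 for OHCs (P22) against SCs, 1 for IHCs against cHCs and 1 for IHCs against OHCs (P7). Under that filter, 4 of the 8 genes were tested. The cause of these changes was not tested.

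Leaving out each library in turn gave 3 to 4 genes between cHCs and SCs, 4 to 5 for OHCs (P7), 4 to 6 for OHCs (P22) and 4 to 6 for IHCs against SCs, 0 to 2 for OHCs (P7), 1 to 3 for OHCs (P22) and 2 to 3 for IHCs against cHCs, 0 to 2 between OHCs (P22) and OHCs (P7), 0 to 2 between IHCs and OHCs (P7), and 1 to 3 between IHCs and OHCs (P22). A library left alone in its cell type was assumed to vary like the others. Log2 differences that changed sign were, for cHCs minus SCs, *Cabp2* (-0.18 without SC library 12, and up to 12.04 without library 11), *Pclo* (-0.08 without cHC library 16, and up to 1.08 without library 13) and *Slc17a8* (-3.06 without cHC library 13, and up to 5.60 without library 16), and with the files as attached *Bsn* (-1.38) and *Rims2* (-1.77) for cHCs minus SCs, *Otof* (-0.32) for OHCs (P22) minus cHCs and *Slc17a8* (-1.52) for OHCs (P7) minus cHCs. Library totals in place of TMM shifted the median log2 difference of all genes by -0.42 to 0.34, and moved the share of calls that were higher from 63.8% to 50.0% for OHCs (P7) against cHCs and from 36.5% to 22.8% for OHCs (P22) against cHCs. Of the 24 closest profiles, 19 were again among the 3 closest to their gene with a prior count of 0.5, and 2 with Spearman's rho.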
